A study of Mus musculus with 4 samples.

Results

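RNA from cultured mouse pancreatic ductal cells was examined for 10 genes best known from the liver: Apob, Alb, Ttr, Afp, Apoa1, Apoe, Ahsg, Ambp, Tat and Hnf4a. They were chosen by name, with earlier results of these data known, as 10 of 22869 gene symbols in the deposited tables. Each had a single RefSeq transcript line, so the rule that takes the line with the highest mean count left no choice. There were 2 libraries labelled Hhex knockout, from mice with floxed Hhex alleles and a Sox9-driven, tamoxifen-dependent Cre (Sox9CreER;HhexL/L). They were set against 2 control libraries from littermates with the floxed alleles and no Cre (HhexL/L). All mice were C57BL/6 adults that had not been induced, and both groups of cells received 500 nM 4-hydroxytamoxifen, which activates the Cre, for 4 days in the dish. No group carried the Cre without floxed alleles, so an effect of the Cre cannot be told apart from one of Hhex loss, and the share of cells that recombined is not given in the sources used here.

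Hepatocytes make most of the proteins of blood plasma. Albumin, transthyretin, alpha-fetoprotein and fetuin-A carry ligands in the blood, apolipoproteins package lipid into lipoprotein particles, and Ambp gives rise to alpha-1-microglobulin and the protease inhibitor bikunin. HNF4A is a nuclear receptor that drives much of this programme in hepatocytes and is also made in the endoderm-derived epithelia of gut and pancreas. Hhex is a homeobox factor of early liver and pancreas, and bile duct and pancreatic duct cells share an origin in the foregut with hepatocytes. The comparison asks what the libraries labelled knockout hold of these liver transcripts beside the controls.

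The 250 bases before the RefSeq start of 4 members are shown: Apob and Ambp, whose groups lay farthest apart relative to counting error, and the neighbouring albumin family genes Alb and Afp. They come from RefSeq on GRCm38.p6, a later build than the mm9 of the deposited tables, at chr12:7977427-7977676 (plus strand), chr4:63154173-63154422 (minus strand), chr5:90460620-90460869 (plus strand) and chr5:90490464-90490713 (plus strand). Each is written 5′ to 3′, and capitals mark the letters of a TATA box, spelled TATAAA, or of a form of the HNF1 site, spelled GTTAATNAT.
Apob: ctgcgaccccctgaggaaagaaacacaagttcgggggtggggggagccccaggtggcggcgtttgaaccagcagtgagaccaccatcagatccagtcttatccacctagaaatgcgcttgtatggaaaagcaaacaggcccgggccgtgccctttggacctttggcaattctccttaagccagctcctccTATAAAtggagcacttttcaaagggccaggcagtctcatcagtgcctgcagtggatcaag
Ambp: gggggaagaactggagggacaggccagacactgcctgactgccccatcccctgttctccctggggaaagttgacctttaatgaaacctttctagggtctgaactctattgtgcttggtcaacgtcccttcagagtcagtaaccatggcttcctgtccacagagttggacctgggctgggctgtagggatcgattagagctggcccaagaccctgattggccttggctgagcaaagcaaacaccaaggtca
Alb: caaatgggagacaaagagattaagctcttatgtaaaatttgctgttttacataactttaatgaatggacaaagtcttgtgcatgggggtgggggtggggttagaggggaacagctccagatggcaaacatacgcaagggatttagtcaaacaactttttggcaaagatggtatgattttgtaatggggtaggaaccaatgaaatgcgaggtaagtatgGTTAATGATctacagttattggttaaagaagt
Afp: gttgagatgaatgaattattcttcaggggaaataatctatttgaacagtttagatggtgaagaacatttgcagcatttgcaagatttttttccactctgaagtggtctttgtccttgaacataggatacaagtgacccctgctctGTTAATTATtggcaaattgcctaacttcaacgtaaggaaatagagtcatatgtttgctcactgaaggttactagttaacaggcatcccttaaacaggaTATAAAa

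Windows of the same table, which also run 50 bases past the start, were searched on both strands for these letters, for CAAAGTCCA (an HNF4 core) and for CAATTA (a homeobox core). For 9 of the members 12 windows were read, since Apoe has 3 starts and Hnf4a 2. Windows on chromosome 18 were left out of the search of the members, so Ttr was not read. GTTAATNAT stood in the windows of Alb and Afp, against 0.801% of all 32851 windows in the table. TATAAA stood in a window of Apob, Afp and Apoe, against 13.6% of all windows, and in 1 window of Apoe its matches on the 2 strands overlap. CAAAGTCCA and CAATTA were in 0 of the 12 windows, against 0.475% and 8.0% of all windows. A match describes letters only and shows no bound site.

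The libraries held between 25257778 and 39582625 counts. Hhex, the targeted gene, had 23.6 and 38.9 CPM (counts scaled to a common, TMM-corrected library size) in the libraries labelled knockout and 24.8 and 17.7 CPM in the controls. The groups overlapped, with a log2 fold change of 0.55 ± 0.27 (SE, edgeR adjusted p = 0.741), so Hhex was not lower where the label says knockout. The labels do not say which part of the gene is deleted. Reads from outside that part would still be counted, so the count does not settle whether the gene was lost, and every direction below is between libraries as labelled. Xist stood at 304 CPM in labelled knockout replicate 2 and at no more than 1.75 CPM in the other 3 libraries; Xist is the RNA of the inactive X chromosome in female cells. Of 20949 transcripts tested with edgeR's quasi-likelihood test, 37 passed an adjusted p of 0.05, 27 higher and 10 lower. With library totals or upper-quartile factors in place of TMM 5 passed, 0 higher and 5 lower.

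Ductal genes were abundant, and 9 of the 10 members averaged under 1 RPKM. Krt18 and Krt8, keratins of simple epithelia, had mean RPKM (the authors' read density, scaled for length and depth) of 4076 and 1632 over the 4 libraries, and all 16 ductal markers averaged at least 1 RPKM. Among them Tm4sf4, a tetraspanin-like membrane protein, was called lower, with 30.2 and 29.7 CPM in the libraries labelled knockout and 114 and 79.1 CPM in the controls (edgeR adjusted p = 0.0421). Sox9, the duct factor whose promoter drives the Cre, had 52.2 and 44.2 CPM in the libraries labelled knockout and 18.0 and 21.3 CPM in the controls (edgeR adjusted p = 0.0521). Muc1 had 1.79 and 7.35 CPM in the libraries labelled knockout and 22.7 and 19.2 CPM in the controls (edgeR adjusted p = 0.303). Of the 16 ductal markers tested, 4 had an unadjusted edgeR p under 0.05 downward and 2 upward. The summed mesothelial markers also differed in level, with 3690 and 5498 CPM in the libraries labelled knockout and 2209 and 2765 CPM in the controls, and edgeR called 0 of the 5 tested. Msln, which tumour cells and mesothelium make, gave most of that sum, while 4 of the 6, Wt1 and Upk3b among them, averaged under 1 RPKM. Krt19, which is on the ductal list as well, added 552 and 1013 CPM in the libraries labelled knockout and 625 and 752 CPM in the controls. The part of these differences in the members' values was not tested. Among all genes 51.7% averaged under 1 RPKM, and Hnf4a averaged 4.77 RPKM. Apoe (0.924 RPKM) and Ambp (0.878 RPKM) were the highest of the 9, near the middle of all genes at the 51.1 and 50.6 percentiles. Ttr, Afp, Apob, Apoa1, Alb, Tat and Ahsg followed in that order, from 0.377 down to 0.0921 RPKM, that is, from the 44.7 to the 25.1 percentile. Neighbours among the 9 overlapped in their single-library values: Apoa1, Alb and Tat averaged 0.136, 0.124 and 0.119 RPKM, while single libraries of Tat ran from 0.0521 to 0.2496 RPKM. Alb, Apoa1 and Ahsg, with 2 to 21 counts in a library, rest on few reads.

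**Figure D1:**
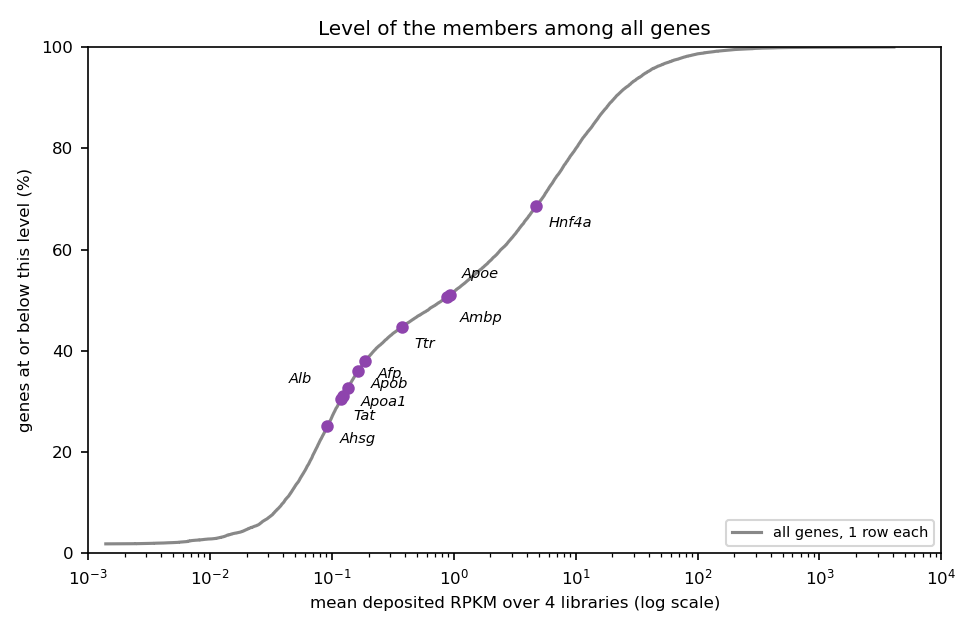
Mean deposited RPKM over the 4 libraries (x axis, log scale) against the percent of all genes at or below that level (y axis). The grey line is all genes, 1 line each, and the dots are the 10 members; Hnf4a stands above the others at 4.77 RPKM.

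Each of the 10 members had its lowest CPM in a library labelled knockout, 8 in replicate 1 and 2 in replicate 2. The share of all genes with this trait was not computed, so the count does not set the members apart from other genes. For Afp (0.375 against 0.400 CPM in control replicate 1) and Tat (0.161 against 0.162 CPM in control replicate 2) the margin was small. On the deposited RPKM, Afp was lowest in control replicate 1 (0.136) and Tat in control replicate 2 (0.0521). No member passed the test across all transcripts. The filter on low counts left 7 of the 10 members to be tested, and Alb, Apoa1 and Ahsg were not tested. Of these 7, 0 were called by edgeR at an adjusted p of 0.05, a rule that called 0.177% of all transcripts, and 2 had an unadjusted p under 0.05 downward, which 2.78% of all transcripts did. Both libraries labelled knockout lay below both controls for 4 of the 7, Apob, Ambp, Apoe and Ttr, as they did for 17.4% of the genes tested. The median log2 fold change of the 7 was -0.98, against -0.012 over all genes tested. The members were chosen with earlier results of these data known, so these contrasts do not test whether liver genes as a set were lower. Some marker lists whose genes all averaged under 1 RPKM leaned down as well. Negative were 7 of 7 tested endothelial (median -0.39), 9 of 10 fibroblast and stellate (-0.56) and 2 of 2 islet markers (-0.73). Of the tested acinar markers 3 of 6 were negative (-0.058), and the 1 tested red blood cell marker was positive. The values of the untested Apoa1 also lay below the controls in both libraries labelled knockout, while Alb, Afp, Ahsg, Tat and Hnf4a overlapped between groups.

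**Figure D2:**
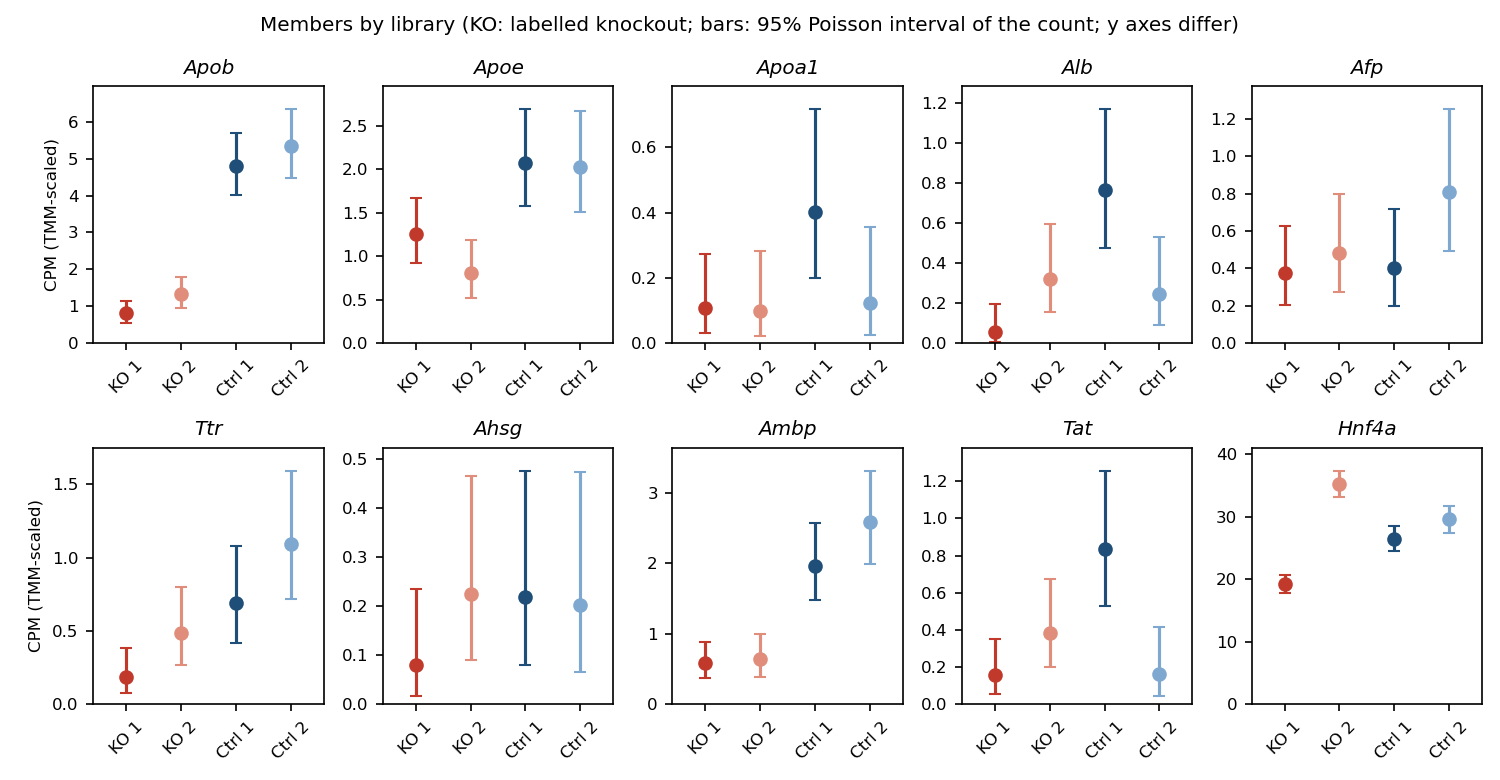
Level of each member in each library in CPM of the TMM-scaled library (y axes from 0 and different for each gene). Points are single libraries, labelled knockout on the left, and bars are 95% Poisson intervals of the count. Only Apob and Ambp have intervals in both libraries labelled knockout that lie below those of both controls.

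Apob encodes the structural protein of the lipoproteins that leave liver and intestine. It had 30 and 41 counts in the libraries labelled knockout, or 0.803 and 1.32 CPM, against 132 and 132 counts in the controls, or 4.80 and 5.35 CPM. Both libraries labelled knockout lay well below both controls, with 95% Poisson intervals that reached no higher than 1.79 CPM there and no lower than 4.02 CPM in the controls. The mean was 1.06 ± 0.367 CPM in the libraries labelled knockout and 5.08 ± 0.383 CPM in the controls (SD, n = 2 each), a log2 fold change of -2.26 ± 0.36 (SE). That is a level 4.79 times higher in the controls (95% interval 2.65 to 8.66), with an unadjusted p of 0.000401 and an adjusted p of 0.118 in edgeR. Its p ranked 71 among the 20949 transcripts.

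The Apob call depended on the test. DESeq2, which called 1.96% of transcripts, gave an adjusted p of 0.000102, and edgeR's robust fit, which called 0.401%, gave 0.0450. Over every alternative that kept the 4 libraries the adjusted p ran from 0.000102 to 0.388. On the deposited RPKM, limma-trend gave smaller log2 differences, -0.26 with a pseudocount of 1 (adjusted p = 0.388) and -1.22 with 0.1 (adjusted p = 0.354), on a scale where either pseudocount weighs against Apob's mean of 0.164 RPKM. The fold change had the same sign with each library left out, between -2.67 without labelled knockout replicate 2 and -1.96 without labelled knockout replicate 1. Without either of these a single library stands for the group, and edgeR then called Apob with adjusted p of 2.77e-09 and 2.24e-05, in fits that called 7.89% and 7.58% of all transcripts. Without control replicate 1 the edgeR adjusted p was 0.281, and without control replicate 2 it was 0.441.

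Ambp encodes the precursor that is cut into alpha-1-microglobulin, a haem-binding lipocalin, and bikunin, the inhibitor chain of inter-alpha-trypsin inhibitor. It had 22 and 20 counts in the libraries labelled knockout, or 0.589 and 0.645 CPM, against 54 and 64 counts in the controls, or 1.97 and 2.59 CPM. The replicates of each group were close and the groups did not overlap, with the upper 95% Poisson bound at 0.995 CPM in the libraries labelled knockout and the lower bound at 1.48 CPM in the controls. The mean was 0.617 ± 0.0395 CPM in the libraries labelled knockout and 2.28 ± 0.443 CPM in the controls (SD, n = 2 each), a log2 fold change of -1.88 ± 0.47 (SE). In edgeR the unadjusted p was 0.00481 and the adjusted p was 0.299. On the deposited RPKM, limma-trend gave a log2 difference of -0.77 (adjusted p = 0.0124) with a pseudocount of 1, where 0.907% of transcripts were called. With a pseudocount of 0.1 it gave -1.58 (adjusted p = 0.0124), where 1.05% were called.

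Bikunin is carried by heavy chains that the Itih genes encode. Itih2 had 8.54 and 3.16 CPM in the libraries labelled knockout and 3.28 and 3.08 CPM in the controls, so the groups overlapped (edgeR adjusted p = 0.764). Of 8 tested genes of bikunin partners and epithelial protease inhibitors, edgeR called 0 and no unadjusted p was under 0.05. Spint1 and Spint2, membrane inhibitors of trypsin-like proteases in epithelia, had mean RPKM of 75.8 and 91.3, far above Ambp at 0.878.

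Apoe encodes a lipoprotein ligand that hepatocytes and macrophages secrete. It had 47 and 25 counts in the libraries labelled knockout, or 1.26 and 0.806 CPM, against 57 and 50 counts in the controls, or 2.07 and 2.03 CPM. The controls were nearly equal and both lay above, yet the Poisson interval of labelled knockout replicate 1 (0.924 to 1.67 CPM) overlapped those of both controls. The log2 fold change was -0.98 ± 0.45 (SE), a level 1.98 times higher in the controls with a 95% interval of 0.945 to 4.13 that includes no change (edgeR adjusted p = 0.717). In bulk RNA, fewer cells that make a message and less of it per cell cannot be told apart.

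Macrophages are a source of Apoe, so their markers are given beside it. Of the 12 measured, 10 averaged under 1 RPKM, and their summed level was 128 and 214 CPM in the libraries labelled knockout and 166 and 149 CPM in the controls, most of it from Cd14, a coreceptor for bacterial lipopolysaccharide. Cd68 averaged 7.26 RPKM, with 16.2 and 3.93 CPM in the libraries labelled knockout and 7.35 and 10.8 CPM in the controls. Csf1r, the receptor that macrophages need, had 0.776 and 1.35 CPM in the libraries labelled knockout and 1.42 and 0.689 CPM in the controls. Lyz2, C1qc and Fcgr3, named after their values were seen, had at most 10 counts in any library. The list overlapped between groups where Apoe did not, and its part in the Apoe values was not tested.

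Apoa1, the main protein of high-density lipoprotein, was close to the counting limit. It had 4 and 3 counts in the libraries labelled knockout, or 0.107 and 0.0967 CPM, against 11 and 3 counts in the controls, or 0.400 and 0.122 CPM. Control replicate 1 alone was high, and control replicate 2 was within counting error of both libraries labelled knockout. Apoa1 did not pass the filter, and without a filter edgeR gave a log2 fold change of -1.34 (SE 1.1, adjusted p = 0.99).

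The other lipoprotein genes split evenly. Of 16 tested, 8 had positive and 8 negative fold changes, the median log2 fold change was 0.00035, and edgeR called 0. Unadjusted p was under 0.05 downward for 3 of them, Clu, Apoc1 and Apobec1, and upward for 1, the cholesterol exporter gene Abca1, named after its values were seen. Abca1 had 6.72 and 7.96 CPM in the libraries labelled knockout and 5.57 and 4.09 CPM in the controls (edgeR adjusted p = 0.66). Apobec1, the cytidine deaminase that edits Apob mRNA, had 12.8 and 16.1 CPM in the libraries labelled knockout and 22.1 and 18.3 CPM in the controls (edgeR adjusted p = 0.622). Apoc1, a small exchangeable apolipoprotein encoded next to Apoe, had 0.214 and 0.0967 CPM in the libraries labelled knockout and 1.13 and 0.608 CPM in the controls (edgeR adjusted p = 0.521). Clu, the chaperone apolipoprotein clusterin, was abundant, with 1925 and 1230 CPM in the libraries labelled knockout and 3039 and 2378 CPM in the controls (edgeR adjusted p = 0.522).

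Mttp, the transfer protein that loads lipid onto apolipoprotein B, was named after its values were seen. It had 8.30 and 7.54 CPM in the libraries labelled knockout and 7.79 and 5.06 CPM in the controls (edgeR adjusted p = 0.922), so it did not share the separation of Apob. Sar1b, a GTPase of the vesicles that carry lipoproteins out of the endoplasmic reticulum, had 115 and 111 CPM in the libraries labelled knockout and 99.8 and 104 CPM in the controls.

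Because intestine also makes Apob and Apoa1, intestinal epithelial markers were summed. They came to 30.2 and 14.8 CPM in the libraries labelled knockout and 36.4 and 42.0 CPM in the controls, mostly from Vil1, the actin bundler of microvilli. The 4 tested all had negative fold changes and edgeR called 0 of them; Vil1 had 25.3 and 9.54 CPM in the libraries labelled knockout and 27.8 and 36.3 CPM in the controls (edgeR adjusted p = 0.719). Lgals4 had 2.54 and 2.29 CPM in the libraries labelled knockout and 3.71 and 2.96 CPM in the controls (edgeR adjusted p = 0.87). Cdx2 had 1.47 and 1.35 CPM in the libraries labelled knockout and 2.95 and 2.03 CPM in the controls (edgeR adjusted p = 0.735). Sis, the remaining tested marker, overlapped between groups. Fabp1, Cdx1 and Apoa4, named after their values were seen, had at most 10 counts in any library. The sum thus lay below the controls in the same libraries as Apob, and their part in its values was not tested.

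Among the carrier proteins, Ttr, which transports thyroid hormone and retinol-binding protein, had 7 and 15 counts in the libraries labelled knockout, or 0.187 and 0.483 CPM. The controls had 19 and 27 counts, or 0.692 and 1.09 CPM. The groups did not overlap, but the intervals of labelled knockout replicate 2 (0.271 to 0.797 CPM) and control replicate 1 (0.416 to 1.08 CPM) did. The log2 fold change was -1.41 ± 0.78 (SE) with an edgeR adjusted p of 0.786. Ttr is also made in islets, where 13 islet markers all averaged under 1 RPKM and 9 had at most 10 counts in any library, the hormone genes Ins1, Ins2, Gcg, Sst, Ppy and Pyy among them. The islet sum was 2.27 and 3.19 CPM in the libraries labelled knockout and 5.35 and 2.19 CPM in the controls, so it overlapped between groups.

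Alb, the major plasma protein, had 2 and 10 counts in the libraries labelled knockout, or 0.0535 and 0.322 CPM, against 21 and 6 counts in the controls, or 0.764 and 0.243 CPM. Control replicate 1 was high and labelled knockout replicate 1 low, the other two lay close together, and the count of 2 is below the floor of 3 counts (0.0803 CPM in that library). Afp, the fetal relative of albumin, had 14 and 15 counts in the libraries labelled knockout, or 0.375 and 0.483 CPM, against 11 and 20 counts in the controls, or 0.400 and 0.810 CPM. Its groups overlapped, and the log2 fold change was -0.49 ± 0.76 (SE; edgeR adjusted p = 0.961). Alb was highest in control replicate 1 and Afp in control replicate 2. The Poisson interval of Afp in control replicate 2 (0.495 to 1.25 CPM) overlapped those of all its other libraries.

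Ahsg encodes fetuin-A, which binds calcium phosphate in blood. It was the lowest member, with 3 and 7 counts in the libraries labelled knockout, or 0.0803 and 0.226 CPM, against 6 and 5 counts in the controls, or 0.218 and 0.203 CPM. The groups overlapped, and no difference was detectable at this depth. In the GENCODE annotation of GRCm38 an exon of Ahsg overlaps the antisense gene Gm30505 by 62 bases; whether the authors counted by strand is not given in the sources used here. No other member shared exon bases with another gene there.

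Tat, the tyrosine aminotransferase of amino acid breakdown, is a hepatocyte enzyme rather than a secreted protein. It had 6 and 12 counts in the libraries labelled knockout, or 0.161 and 0.387 CPM, against 23 and 4 counts in the controls, or 0.837 and 0.162 CPM. Control replicate 1 was the highest, though its Poisson interval (0.531 to 1.26 CPM) overlapped that of labelled knockout replicate 2 (0.200 to 0.675 CPM), and control replicate 2 was as low as labelled knockout replicate 1. The log2 fold change was -0.89 ± 1.03 (SE, edgeR adjusted p = 0.945) with all libraries and 0.72 ± 1.62 (SE) without control replicate 1. Of 19 tested genes for liver enzymes edgeR called 0, and 6 had positive and 13 negative fold changes, with a median log2 fold change of -0.10. The one with an unadjusted p under 0.05 was Ugt1a1, which conjugates bilirubin, with 22.0 and 25.1 CPM in the libraries labelled knockout and 11.7 and 11.7 CPM in the controls (edgeR adjusted p = 0.122).

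Control replicate 1 was thus the highest library for Alb, Apoa1 and Tat, and by a small margin for Apoe (2.07 against 2.03 CPM in control replicate 2). It was also the highest for the summed endothelial markers, with 4.58 and 9.41 CPM in the libraries labelled knockout and 13 and 5.63 CPM in the controls, with all 8 of those markers under 1 RPKM on average. The fibroblast and stellate sum was 7.87 and 10.9 CPM in the libraries labelled knockout and 16.9 and 11.8 CPM in the controls, and the acinar sum 2.89 and 4.67 CPM in the libraries labelled knockout and 5.02 and 2.59 CPM in the controls. The deposited counts relative to the library total implied by the deposited RPKM were 1.28 and 1.14 times those of control replicate 1 in the libraries labelled knockout and 1.19 times in control replicate 2. The part of that library-wide trait in the members' values was not tested. Apob, Ambp, Ttr and Afp were highest in control replicate 2.

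Summed over the 9 members other than Hnf4a, the level came to 3.61 and 4.77 CPM in the libraries labelled knockout, against 12.2 and 12.6 CPM in the controls. The 2 controls were alike and stood above both libraries labelled knockout. The fibroblast and stellate sum and the intestinal sum, given above, also lay below both controls, with negative fold changes for 9 of 10 and 4 of 4 tested markers and median log2 fold changes of -0.56 and -0.64. All 12 fibroblast and stellate markers averaged under 1 RPKM, and the part of either list in the members' sum was not tested. Apob gave 22.2% and 27.7% of the summed count in the libraries labelled knockout and 39.5% and 42.4% in the controls. Without Apob, Ambp and Apoe, a choice made after their values were seen, the other 6 summed to 0.963 and 2.00 CPM in the libraries labelled knockout and 3.31 and 2.63 CPM in the controls. Since members were chosen with results known, no test was made of these sums.

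**Figure D3:**
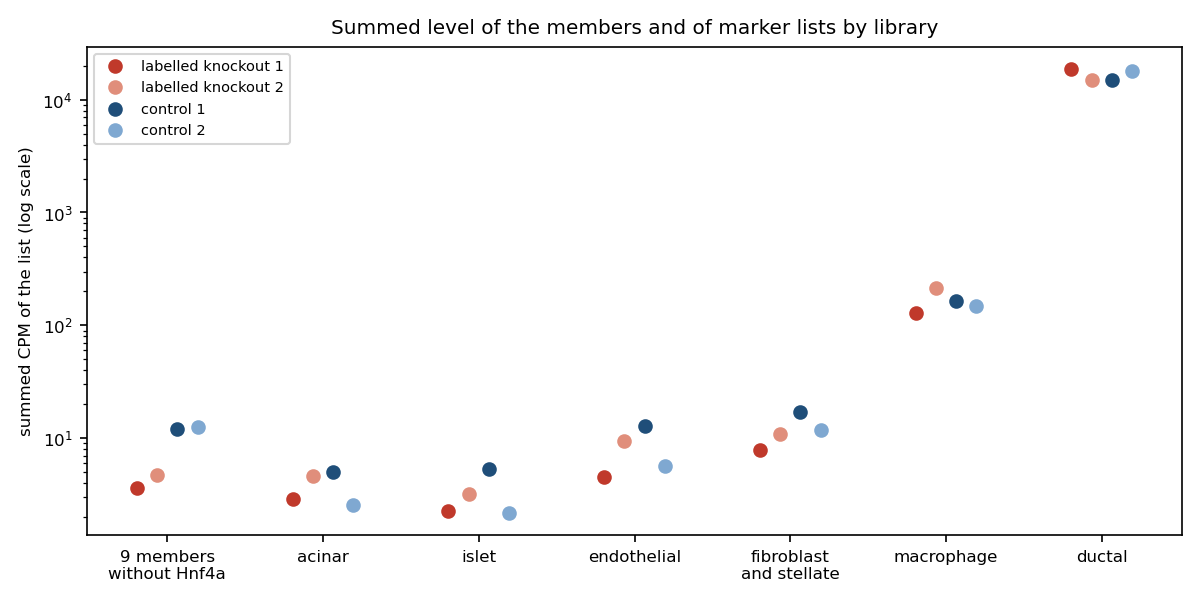
Summed CPM (y axis, log scale) of the 9 members without Hnf4a and of lists of cell type markers (x axis), with 1 point per library and the libraries labelled knockout on the left of each set. The members' sum separates the groups, with 3.61 and 4.77 CPM in the libraries labelled knockout and 12.2 and 12.6 CPM in the controls, and the fibroblast and stellate sum also lies below both controls, with 7.87 and 10.9 CPM in the libraries labelled knockout and 16.9 and 11.8 CPM in the controls. The acinar, islet, endothelial, macrophage and ductal sums overlap.

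Hnf4a, the transcription factor among the members, was well measured and showed no common direction. It had 719 and 1092 counts in the libraries labelled knockout, or 19.2 and 35.2 CPM, against 728 and 730 counts in the controls, or 26.5 and 29.6 CPM. The libraries labelled knockout lay on either side of the controls, with Poisson intervals of 17.9 to 20.7 and 33.1 to 37.3 CPM that did not overlap. The higher was 1.83 times the lower in the libraries labelled knockout and 1.12 times in the controls. The log2 fold change was -0.044 ± 0.27 (SE), a ratio of 0.97 whose 95% interval ran between 0.621 and 1.51 (edgeR adjusted p = 0.99).

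Leaving out a library moved Hnf4a either way. Without labelled knockout replicate 2, the library with high Xist, the log2 fold change was -0.56 (edgeR adjusted p = 0.0323), and without labelled knockout replicate 1 it was 0.30 (edgeR adjusted p = 0.387), each with a single library for the group. With 1 such library, the sex of the animal and any other feature of it cannot be told apart. Hnf4a has a pair of promoters, of which the downstream one is used in adult liver and the upstream one in pancreas, and the single line of the tables does not tell them apart.

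**Figure D4:**
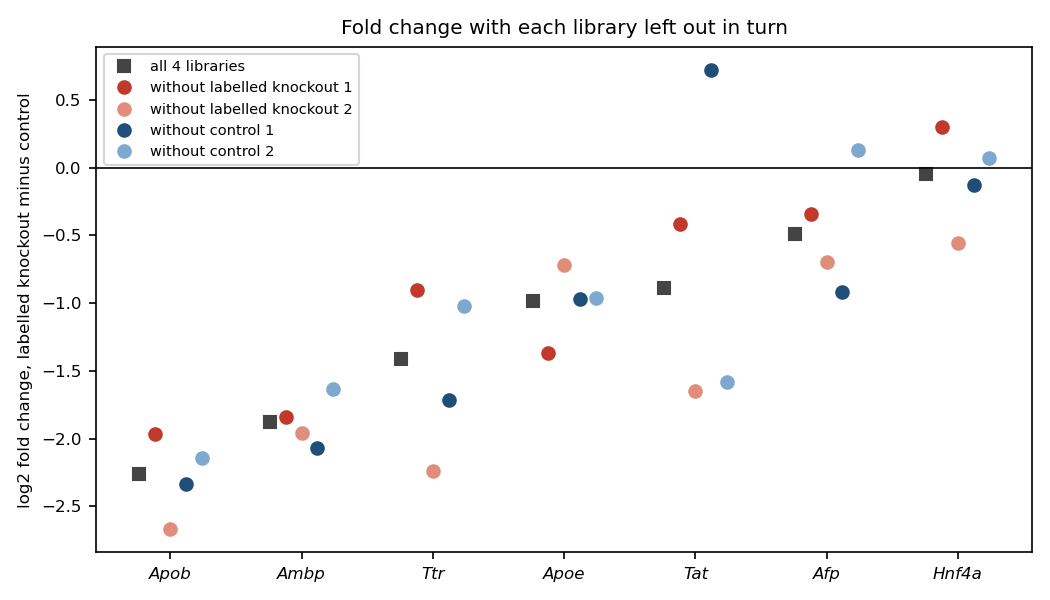
Log2 fold change, labelled knockout minus control (y axis), of the 7 tested members (x axis) with all 4 libraries (squares) and with each library left out in turn (dots). Apob, Ambp, Ttr and Apoe stay below 0 in every fit shown, while Tat, Afp and Hnf4a cross it.

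Other liver-enriched transcription factors gave no general difference either. Of 24 tested edgeR called 0, 11 had positive and 13 negative fold changes, and the median log2 fold change was -0.031. Foxa2, a pioneer factor of endoderm, had 47.2 and 52.1 CPM in the libraries labelled knockout and 50.6 and 51.3 CPM in the controls. Onecut2, a factor of liver and pancreas development, was high in labelled knockout replicate 2 alone, with 25.3 and 109 CPM in the libraries labelled knockout and 29.0 and 39.0 CPM in the controls. Nr5a2, a nuclear receptor of acinar and liver cells, was the one with an unadjusted p under 0.05, with 0.375 and 0.645 CPM in the libraries labelled knockout and 2.11 and 1.05 CPM in the controls (edgeR adjusted p = 0.604).

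Plasma protein genes outside the 10 members showed how uneven the programme was in these cells. Of 34 measured, 30 averaged under 1 RPKM, 11 had at most 10 counts in every library, and the urinary protein gene Mup20 had 0. Cp, which encodes the copper oxidase ceruloplasmin, was instead among the most abundant genes, with 790.0 and 1158 CPM in the libraries labelled knockout and 1020 and 879 CPM in the controls. Trf, the iron carrier transferrin, had 51.7 and 2.64 CPM in the libraries labelled knockout and 79.0 and 53.6 CPM in the controls, so that 1 library alone was low (edgeR adjusted p = 0.911). Gc, the vitamin D-binding protein, had 8.86 and 12.3 CPM in the libraries labelled knockout, against 7.32 and 7.66 CPM in the controls (edgeR adjusted p = 0.705). Of 17 tested, 4 had positive and 13 negative fold changes with a median log2 fold change of -0.59, and edgeR called 0.

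**Figure D5:**
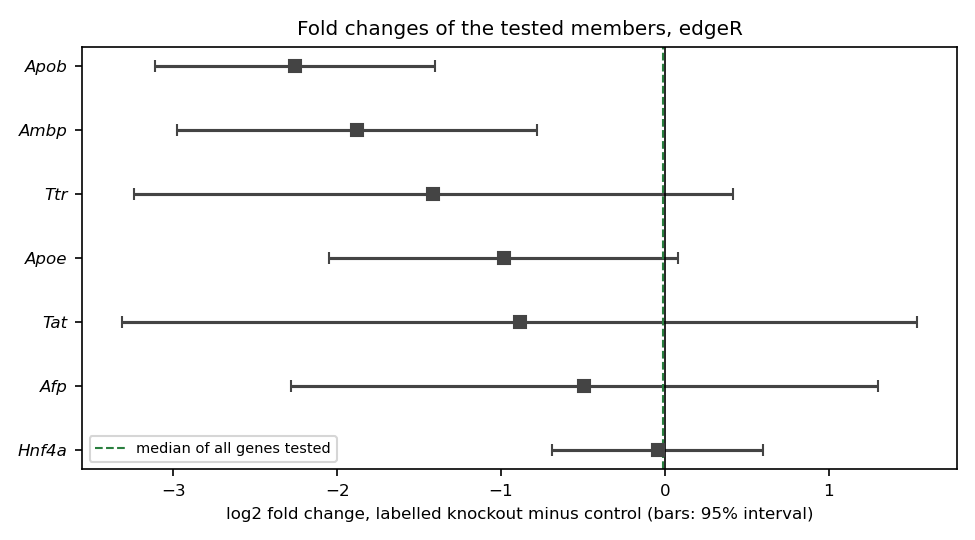
Log2 fold change, labelled knockout minus control (x axis), of the 7 tested members (y axis) from edgeR, with 95% intervals as bars and the median of all genes tested as a dashed line. The intervals of Apob and Ambp lie below 0, and those of the other 5 include 0.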

How the data were processed

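RNA was sequenced from 4 cultures of primary mouse pancreatic ductal cells, 2 per group, with TruSeq RNA v2 libraries per the labels' protocols, and the titles give each library its own number; none is shared between groups. The authors deposited raw counts per RefSeq transcript and RPKM values. The submitters' processing notes name mm9 and edgeR. The aligner, the counting program, strand use and the RPKM library total are not given in the sources used here. That total was estimated from counts divided by RPKM.

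Counts of all 28644 transcripts were tested with edgeR 4.0.16 in R 4.3.3: filterByExpr (minimum count 10, minimum total 15), TMM, the quasi-likelihood F test and Benjamini-Hochberg adjustment over 20949 transcripts, with a threshold of 0.05. CPM uses TMM-scaled libraries. Intervals of 95% for a CPM are Poisson, and like the floor of 3 counts cover counting error only. P-values set the difference between groups against the spread between these samples. With 2 libraries per group, edgeR draws much of that spread from all transcripts together. DESeq2 1.42.0 and limma 3.58.1 were alternatives; the library totals implied by RPKM were added after the data were seen. The test was checked on simulated counts, which gave every transcript the same spread beyond counting error. It recovered 23 of 100 changes of 2-fold and 85 of 100 of 4-fold, and called 7 unchanged transcripts. The changed transcripts were drawn at random from all those tested, so these rates need not hold for members with few counts. Apob, at a level 4.79 times higher in the controls, was itself not called. A member or listed gene that was not called may thus still differ by 2-fold or more. No sample was left out.

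The members and gene lists were chosen with earlier results of these data known. From each list up to 4 genes with the highest mean CPM and up to 3 with an unadjusted p under 0.05 were named; others are marked as named after their values were seen. Not every gene that this rule picks is reported here.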

Additional observations from a re-analysis of the deposited data

How the results depend on the processing

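No member was called with library totals, with upper-quartile factors, without a filter, with a minimum count of 30, with 1 transcript per gene or with counts summed per symbol. The count of called members was 1 in place of 0 with DESeq2, with edgeR's robust fit and with library totals implied by RPKM (Apob each time), and 1 with limma-trend on RPKM with either pseudocount (Ambp). Leaving out each library gave 0 to 2. The cause of these changes was not tested. Calls over all transcripts, 37 in the analysis as reported, were 5 with library totals and with upper-quartile factors, 355 with DESeq2, 79 without a filter, 4 with a minimum count of 30, 2 with 1 transcript per gene, 5 with counts summed per symbol, 84 with the robust fit, 190 and 221 with limma-trend on RPKM with pseudocounts of 1 and 0.1, and 224 with library totals implied by RPKM. With each library left out they ran from 13 without control replicate 1 to 1735 without Hhex knockout replicate 2, with 1682 without Hhex knockout replicate 1; each such fit assumes that the lone library varies like the other group. Signs turned for Afp without control replicate 2 (log2 fold change 0.13), for Tat without control replicate 1 (0.72) and for Hnf4a without control replicate 2 (0.07), without Hhex knockout replicate 1 (0.30) and with library totals implied by RPKM (0.012). With each library left out the log2 fold change ran from -0.92 to 0.13 for Afp, from -1.65 to 0.72 for Tat and from -0.56 to 0.30 for Hnf4a. Of 109 values of single members under alternatives, 93 kept their sign and their side of the threshold, 3 kept their sign with no adjusted p (Ttr, Afp and Tat under DESeq2), 8 passed it in the same direction and 5 turned; Alb, Apoa1 and Ahsg were read from the fit without a filter. No paired analysis was possible because the labels give the groups no shared replicate numbers. With 30 to 132 counts Apob separates the groups, while Ahsg, Apoa1 and Alb, with 2 to 21 counts, have wide counting intervals.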
